A study of Mus musculus with 19 samples.

Results

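A list of 40 genes known to be induced by interferon was followed across the mouse prostate, 30 of a type I class and 10 of a gamma class. Members were matched by symbol to the probe sets of a 3′ expression array that carry 1 gene symbol in the platform annotation, and the probe set with the highest mean over 19 arrays stood for each gene. Of the 40 genes, 38 were measured in this way and 36 were tested, 26 of the type I class and 10 of the gamma class, among 11728 genes tested in all. For a test, the probe set of a gene had to exceed the array median on 4 or more arrays. Oas3 and Zbp1 did not reach that level, Isg15 lay on a probe set with several symbols, and Ifi44 was not analysed here. Among the 36 tested genes, 28 lay above the array median on all 19 arrays. The other 8, which were Ifit1, Usp18, Mx2, Oas2, Oasl1, Dhx58, Gbp3 and Cxcl10, did so on 6 to 16 arrays and could pass through the group in which they were high, so a count over the 36 is not a count over the whole list.

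The arrays held RNA from C57BL/6J mice obtained from Taconic. The animals were 8 weeks of age at the start and ate a control diet or a high fat diet (HFD) ad libitum for 12 weeks. The ventral lobe of the prostate (VP) and the dorsolateral lobe (DLP) were measured apart. VP was covered by 5 arrays on each diet, and DLP by 5 on the control diet and 4 on the high fat diet. The labels state 5 mice for each diet without tying an array to an animal, so the p-values rest on the spread between arrays and treat the lobes as independent samples.

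Interferons are secreted proteins through which cells respond to viruses, other microbes and misplaced nucleic acids. Type I interferons act through the receptor chains Ifnar1 and Ifnar2 and the kinases Jak1 and Tyk2 on transcription factors that include Stat2 and Irf9, which act at the interferon-stimulated response element (ISRE) of genes such as the Ifit, Oas and Mx families. Interferon gamma, a product of T cells and natural killer cells, acts through Jak1 and Jak2 and the gamma-activated site (GAS) of promoters, and induces Irf1, guanylate-binding proteins, immunity-related GTPases and the antigen processing machinery. Many genes answer to both pathways, so the classes overlap in nature.

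Promoter sequences were read for 31 of the 40 genes from RefSeq (build GRCm38.p6, 250 bases before to 50 bases after the transcript start). None was in the table for Usp18, Mx1, Mx2, Oas2, Dhx58, Rtp4, Zbp1, Parp14 and Iigp1. The core of the ISRE, searched on both strands as GAAA, any 2 bases and GAAA, was found in 16 of the 31 genes (51.6%), against 3.99% of 27025 genes with a promoter in the same table. The GAS, searched as TTC, any 3 bases and GAA, which reads alike on both strands, was found in 9 of the 31 (29.0%), against 9.55% of those genes, and 4 members held both. A gene with several promoters counted where any of them held the motif. By class, the ISRE core was present in 11 of 22 type I genes and 5 of 9 gamma genes, and the GAS in 6 of 22 and 3 of 9. A match describes the letters in the window and is no evidence of binding. The stretches printed here were picked by hand among genes that held a motif, so they do not stand for the list. The capitals mark each match to either motif, and overlapping matches run together.
Ifit1: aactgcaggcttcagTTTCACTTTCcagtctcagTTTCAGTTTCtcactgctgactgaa
Ifit3: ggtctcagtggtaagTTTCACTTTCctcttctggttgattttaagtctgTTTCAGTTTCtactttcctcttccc
Rsad2: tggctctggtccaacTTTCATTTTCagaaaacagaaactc
Oas1a: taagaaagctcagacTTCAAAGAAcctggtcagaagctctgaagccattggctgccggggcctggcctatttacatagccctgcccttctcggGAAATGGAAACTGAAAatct
Bst2: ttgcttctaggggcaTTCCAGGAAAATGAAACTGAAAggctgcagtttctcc
These 5 genes belong to the type I class. The stretches lie at chr19:34640770-34640828 on the plus strand (Ifit1), chr19:34583358-34583431 on the plus strand (Ifit3), chr12:26456548-26456587 on the minus strand (Rsad2), chr5:120907526-120907638 on the minus strand (Oas1a) and chr8:71537572-71537623 on the minus strand (Bst2). Ifit1 and Ifit3 each held 2 copies of the ISRE core, the nearest of which began at position -85 in Ifit1 and -122 in Ifit3, counted from the transcript start. Oas1a held 2 overlapping copies and a GAS, and in Bst2 the GAS overlapped 1 of 2 ISRE cores.

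The next 5 genes belong to the gamma class and were likewise picked among genes with a motif. Their HFD VP levels were highest on HFD VP 3, as were those of all 10 gamma genes. Psmb9 and Tap1, also highest there, held neither motif.
Gbp2: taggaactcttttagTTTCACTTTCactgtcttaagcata
Igtp: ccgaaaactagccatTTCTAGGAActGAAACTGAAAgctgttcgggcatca
Irgm1: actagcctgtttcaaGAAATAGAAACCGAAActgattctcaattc
Irf1: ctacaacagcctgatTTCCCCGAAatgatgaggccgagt
Psmb8: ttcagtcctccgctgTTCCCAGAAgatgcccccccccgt
They lie at chr3:142620589-142620628 on the plus strand (Gbp2), chr11:58199496-58199546 on the plus strand (Igtp), chr11:48871421-48871465 on the minus strand (Irgm1), chr11:53769909-53769947 on the plus strand (Irf1) and chr17:34198083-34198121 on the plus strand (Psmb8). Gbp2 held an ISRE core and no GAS, Irgm1 held 2 overlapping ISRE cores, and Igtp held both motifs. Irf1 and Psmb8 held a GAS and no ISRE core in this window.

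The deposited values were log10 signals, printed here as log2 levels, and each array carried the same set of values, so a level shows the rank of a probe set on its array. The array median was 1.85 on this scale. Levels of different genes cannot be compared, since each rests on its own probes. The lobe labels fitted Tgm4, a DLP secretory gene, which was higher in DLP by 10.80 on the control diet and 10.84 on the high fat diet, while the prostate genes Pbsn and Hoxb13 lay above the median on all arrays. Control VP 4 stood apart in 1 set of hybridization controls, with a mean of 3.20 against 6.57 to 7.44 on the other arrays, but not in the other set, at 7.94. HFD VP 3 had the highest summed level of its group for 12 of 15 cell type marker lists. Its 6 macrophage markers summed to 351 on the linear scale, against 55.1 to 83.9 on the other HFD VP arrays and 52.3 to 177 on the control VP arrays. The plasmacytoid dendritic cell markers Siglech, Ccr9 and Spib never exceeded the array median. Differences in VP that moved by more than 1.5 times without HFD VP 3 are given again without it.

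In VP, most listed genes lay higher on the high fat diet, but by less than the spread between arrays allowed to be called. The log2 difference (HFD minus control) was above 0 for 35 of 36 genes, against 52.2% of all genes tested, with a median of 0.51 against 0.01 over all genes. The members were chosen with earlier results of these data known, and many were high or low on the same arrays. Their differences are therefore not independent observations. The same limits hold for the counts above or below 0 in the other comparisons. None of the 36 passed limma's test at an adjusted p of 0.05, a threshold that 1.11% of all genes passed. At an unadjusted p under 0.05 there were 13 of 36, against 15.2% of all genes. In RNA from whole lobes, more cells of a type and more RNA per cell cannot be told apart. Both classes had a similar centre, with a median of 0.50 over 26 type I genes and 0.54 over 10 gamma genes. Without HFD VP 3 these medians were 0.28 and 0.24, and their difference was not tested. Among all 36, no gene had every HFD array above every control array, which 1.38% of all genes did.

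**Figure D1:**
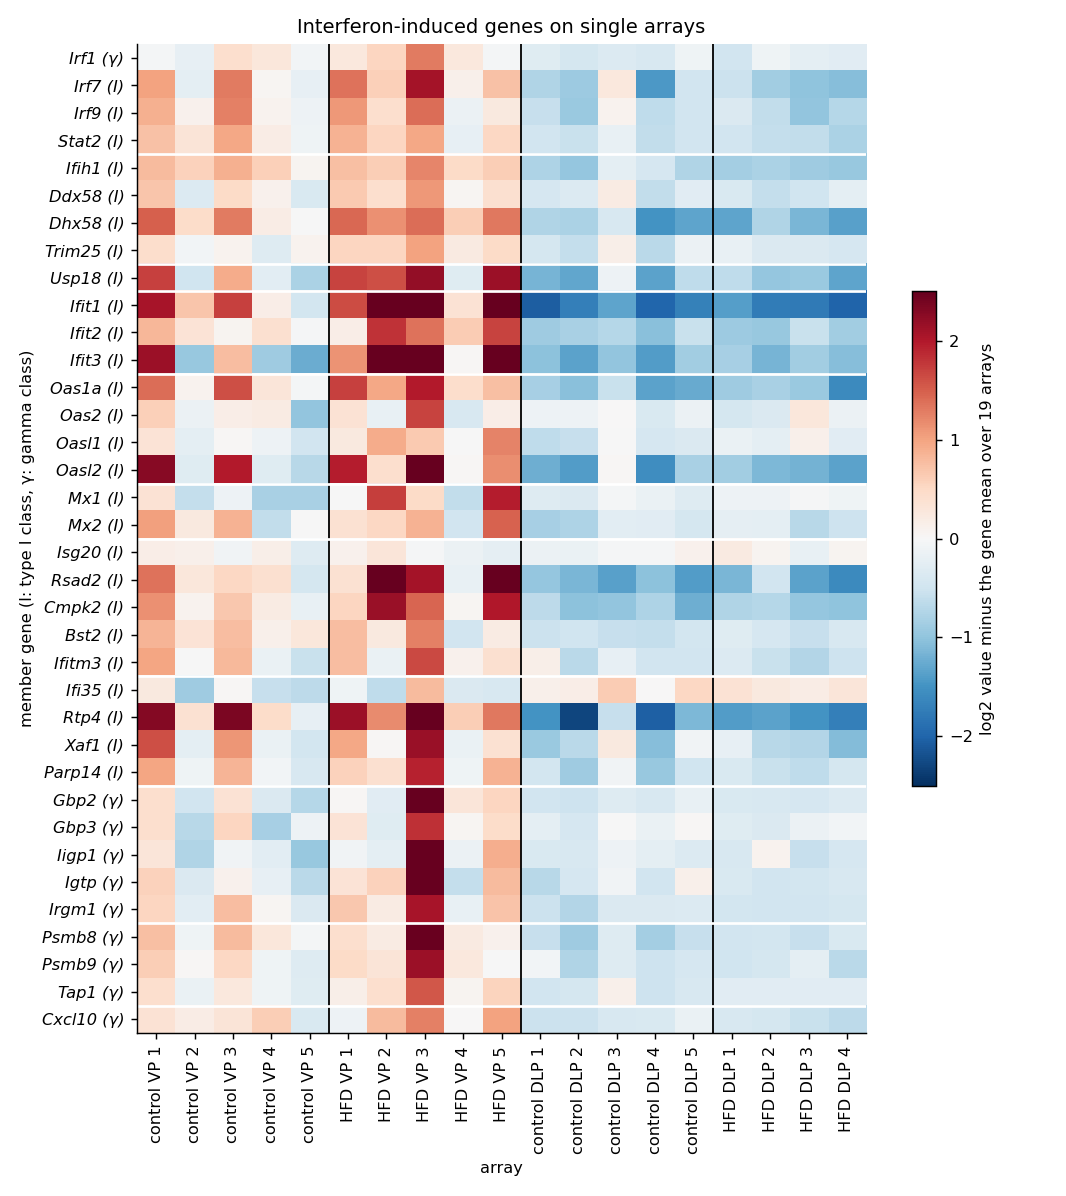
Each row is a member gene and each column an array, coloured by the log2 value minus the mean of that gene over 19 arrays (values past the ends of the colour bar take its end colours). Rows are grouped by role and black lines part the 4 groups. HFD VP 3 is the highest array of its group for 27 of 36 genes, and DLP arrays are mostly below the gene means.

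The IFIT family, whose proteins bind foreign RNA and block its translation, had a median difference of 1.46 by diet in VP, the highest of the roles with more than 1 gene, and none passed. Levels are given in the order of replicate numbers 1 to 5, or 1 to 4 in HFD DLP. Ifit3 measured 5.85, 2.76, 4.48, 2.83 and 2.47 in control VP and 4.84, 6.19, 6.74, 3.75 and 6.70 in HFD VP. Control VP 1 and 3 reached the range of the HFD arrays and HFD VP 1 and 4 lay within that of the controls, so the groups overlapped. The means were 3.68 ± 1.45 (SD, n = 5) and 5.64 ± 1.31 (SD, n = 5), a difference of 1.97, or 3.91-fold. Its 95% interval was 0.79 to 3.15 and limma's adjusted p 0.092. That interval uses the spread shared with the even DLP arrays, so it is narrower than these SDs alone would give. The same holds for the other VP intervals of genes that were even in DLP. In DLP, Ifit3 was low and even, at 2.69, 2.37, 2.73, 2.32 and 2.85 on the control diet and 2.87, 2.54, 2.84 and 2.64 on the high fat diet.

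Ifit1 levels were 5.89, 4.52, 5.52, 3.99 and 3.36 in control VP and 5.44, 7.06, 6.64, 4.19 and 7.24 in HFD VP. Here too HFD VP 1 and 4 lay among the controls, while HFD VP 2, 3 and 5 lay above each of them. The difference was 1.46 (95% interval 0.44 to 2.48, limma's adjusted p 0.15). In DLP, at 1.76, 2.11, 2.50, 1.83 and 2.13 and 2.43, 2.07, 2.05 and 1.83, Ifit1 lay close to the array median. Ifit2 was measured at 4.73, 4.24, 3.96, 4.29 and 3.86 in control VP and at 4.05, 5.70, 5.26, 4.53 and 5.57 in HFD VP. Its difference was 0.81 (0.31 to 1.31, adjusted p 0.10), and HFD VP 1 lay below 3 of the 5 controls. The DLP levels of Ifit2 were 3.01, 3.08, 3.19, 2.85 and 3.34 and 2.99, 2.95, 3.34 and 3.03, below each VP array.

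Of the 4 tested genes of the OAS family, the oligoadenylate synthetases and their relatives, Oasl1 had the smallest adjusted p of all 36 members in VP, at 0.084. Its levels were 2.60, 2.00, 2.29, 2.13 and 1.79 in control VP and 2.49, 3.18, 2.91, 2.25 and 3.49 in HFD VP, a difference of 0.71 (0.29 to 1.12). HFD VP 2, 3 and 5 exceeded each control array and HFD VP 1 and 4 did not. In DLP it measured 1.61, 1.68, 2.25, 1.84 and 1.89 and 2.09, 2.02, 2.38 and 1.98, around the array median. Oas1a, an enzyme whose short oligoadenylate products activate RNase L, differed by 0.50, Oas2 by 0.36 and Oasl2 by 0.72, with limma's adjusted p of at least 0.48. These 3 differences without HFD VP 3 were 0.30, 0.02 and 0.30.

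Mx1 encodes an antiviral GTPase that is defective in many inbred mouse strains. It measured 3.95, 2.98, 3.46, 2.78 and 2.78 in control VP and 3.59, 5.32, 4.07, 2.97 and 5.54 in HFD VP, with its highest levels on HFD VP 2 and 5. The difference was 1.11 (0.37 to 1.85, limma's adjusted p 0.13). In DLP it stayed within a narrow range, at 3.27, 3.23, 3.53, 3.42 and 3.27 and 3.46, 3.46, 3.56 and 3.49. Mx2 differed by 0.25 in VP. Usp18, the protease that removes Isg15 from proteins and damps type I signalling, differed by 1.26 (adjusted p 0.18). It measured 4.72, 4.64, 5.22, 2.73 and 5.17 in HFD VP, with HFD VP 4 far below the other arrays, and 4.73, 2.53, 3.95, 2.77 and 2.23 in control VP.

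**Figure D2:**
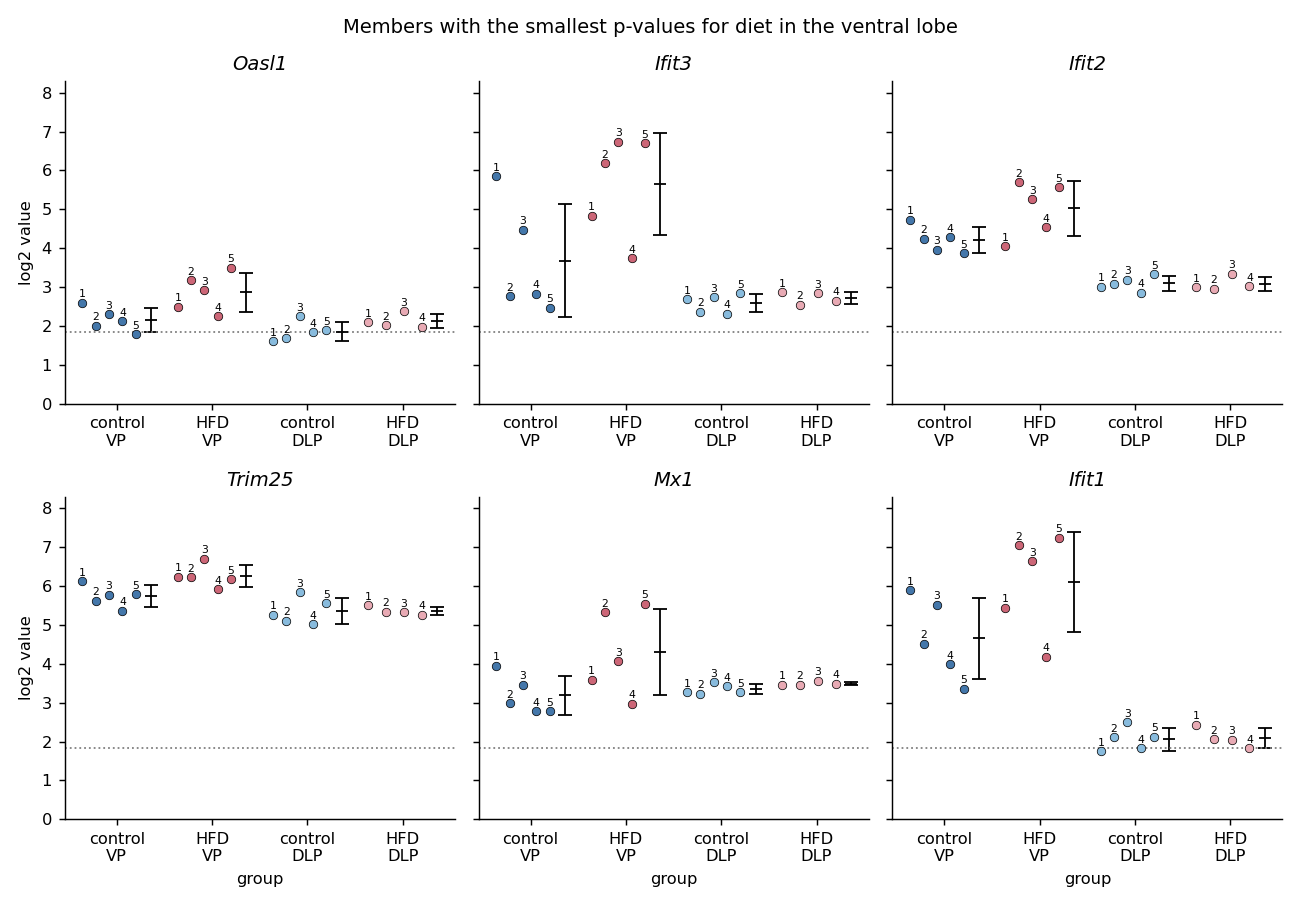
Log2 level of the 6 members with the smallest p for diet in VP, on each array (points, numbered by replicate) of the 4 groups, with the mean and SD of each group (bars) and the array median of 1.85 (dotted line). HFD VP 2, 3 and 5 lie above every control VP array for each gene shown. HFD VP 1 and 4 lie among the controls for Ifit3, at 4.84 and 3.75, and for Ifit1, at 5.44 and 4.19.

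The sensors of viral RNA and their partners had a median difference of 0.45 by diet in VP. Trim25, a ubiquitin ligase of the RIG-I pathway, measured 6.13, 5.62, 5.78, 5.37 and 5.78 in control VP and 6.24, 6.23, 6.70, 5.93 and 6.18 in HFD VP. The lowest HFD array lay above all controls but control VP 1, and the difference was 0.52 (0.19 to 0.85, limma's adjusted p 0.11). Its DLP levels were 5.26, 5.11, 5.85, 5.02 and 5.55 and 5.51, 5.34, 5.33 and 5.26. A second probe set of Trim25 gave 0.50 in VP and another, near the array median, -0.09. Dhx58 differed by 0.50, Ddx58 (RIG-I) by 0.41 and Ifih1 (MDA5) by 0.15. The differences of Ddx58 and Ifih1 were, with HFD VP 3 left out, 0.26 and 0.032.

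The 4 transcription factors of the list had differences of 0.11 to 0.60 in VP, and none passed. Irf7, the factor that amplifies type I interferon production, measured 4.72, 3.47, 5.01, 3.76 and 3.50 in control VP and 5.08, 4.30, 5.79, 3.83 and 4.45 in HFD VP. Control VP 1 and 3 and HFD VP 1 and 3 were the high arrays, and the difference was 0.60 (-0.14 to 1.34, limma's adjusted p 0.44). Irf9, the DNA-binding part of the type I complex, measured 5.35, 4.57, 5.73, 4.55 and 4.34 and 5.55, 4.89, 5.87, 4.32 and 4.72, a difference of 0.16. Stat2, its partner, measured 4.51, 4.10, 4.74, 3.96 and 3.66 and 4.64, 4.31, 4.73, 3.56 and 4.28, a difference of 0.11. Irf1, a factor induced by interferon gamma, measured 4.56, 4.40, 5.02, 4.89 and 4.53 and 4.86, 5.14, 5.90, 4.86 and 4.55. Its difference was 0.38 (0.01 to 0.76, adjusted p 0.31), with HFD VP 3 the highest array. When HFD VP 3 was left out, the differences of Irf7, Irf9, Stat2 and Irf1 were 0.32, -0.04, 0.0038 and 0.17.

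Among the other antiviral effectors, Rsad2 (viperin), which makes a chain-terminating nucleotide, measured 5.44, 4.38, 4.61, 4.49 and 3.65 in control VP and 4.48, 7.36, 6.17, 3.91 and 6.87 in HFD VP. Cmpk2, a nucleotide kinase encoded beside it, measured 4.22, 3.17, 3.75, 3.29 and 2.89 and 3.61, 5.24, 4.53, 3.13 and 5.08. Both were highest on HFD VP 2 and 5 and low on HFD VP 4. Their differences were 1.24 (0.23 to 2.26, limma's adjusted p 0.22) and 0.85 (0.19 to 1.51, adjusted p 0.19). Bst2 (tetherin), which holds budding virions at the cell surface, had the lone negative difference, -0.08 (-0.52 to 0.37), with levels of 4.76, 4.26, 4.68, 4.05 and 4.20 and 4.68, 4.16, 5.17, 3.44 and 4.11. Isg20, an exonuclease, differed by 0.00 and Ifitm3, which restricts virus entry, by 0.34. Rtp4, Xaf1, Parp14 and Ifi35 differed by 0.58, 0.30, 0.48 and 0.23. Leaving out HFD VP 3 put these 4 at 0.26, -0.067, 0.18 and -0.0021, Ifitm3 at 0.062, Isg20 at 0.0098 and Bst2 at -0.29.

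The 10 gamma class genes all had positive differences by diet in VP, from 0.36 (Psmb8) to 1.27 (Iigp1), and none passed. Iigp1, a GTPase that attacks the vacuoles of intracellular parasites, measured 3.71, 2.66, 3.32, 3.14 and 2.46 in control VP and 3.32, 3.16, 7.61, 3.27 and 4.31 in HFD VP. Gbp2, a guanylate-binding protein, measured 3.63, 2.72, 3.58, 2.84 and 2.50 and 3.24, 2.92, 6.82, 3.51 and 3.75. Both levels on HFD VP 3 stood far above every other array of either diet. The difference of Gbp2 was 0.99 with all arrays and 0.30 without HFD VP 3, and that of Iigp1 was 1.27 and 0.46. Igtp, a related GTPase, measured 4.13, 4.38, 6.52, 3.21 and 4.59 in HFD VP against 4.37, 3.43, 3.90, 3.59 and 3.12 in control VP. Psmb8, an immunoproteasome subunit, measured 4.40, 4.19, 6.45, 4.20 and 4.08 against 4.73, 3.86, 4.76, 4.26 and 3.94, and its difference was -0.09 without HFD VP 3. Psmb9, Tap1, Irgm1, Gbp3 and the chemokine Cxcl10 differed by 0.49, 0.53, 0.55, 0.61 and 0.37. With HFD VP 3 left out they differed by 0.12, 0.28, 0.21, 0.27 and 0.20, and Igtp by 0.39 in place of 0.88.

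The level of these genes in VP differed between the arrays of a group. The mean deviation of the 36 genes from their means over 19 arrays was 0.91, -0.10, 0.70, -0.04 and -0.36 on control VP 1 to 5. On HFD VP 1 to 5 it was 0.68, 0.74, 1.79, 0.01 and 0.93. Control VP 1 and 3 thus lay at the level of 3 of the HFD arrays, and HFD VP 4 lay with the other controls. Control VP 1 was the highest of its group for 25 of 36 genes and control VP 5 the lowest for 27. HFD VP 3 was the highest of its group for 27 of 36 genes, against 24.8% of all genes tested, and HFD VP 4 the lowest for 25.

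HFD VP 3 had the highest score of its group for both classes, and the difference between classes was not tested. It was the highest array for 10 of 10 gamma genes and for 17 of 26 type I genes. Among the type I genes, HFD VP 2 was highest for Ifit2, Rsad2, Cmpk2 and Isg20, HFD VP 5 for Ifit1, Mx1, Mx2 and Oasl1, and HFD VP 1 for Dhx58. The gamma class score was 2.32 on HFD VP 3 and 0.03 to 0.50 on the other HFD VP arrays. The type I score was 1.59 on HFD VP 3, 1.10 on HFD VP 5, 0.94 on HFD VP 2, 0.85 on HFD VP 1 and 0.01 on HFD VP 4. On HFD VP 3, the summed level of 4 natural killer cell markers was also high, at 36.3 against 10.3 to 13.2 on the other HFD VP arrays and 7.22 to 15.8 in control VP. The 6 measured T cell markers summed to 15.1 there, against 9.42 to 11.4 on the other HFD VP arrays. None of these markers was at 0 on any array, but Ncr1, Cd3e, Cd2 and Cd4 never exceeded the array median. Control VP 4, with the highest macrophage sum of its group, 177, had an interferon score of -0.04. The part of these markers in the result was not tested.

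**Figure D3:**
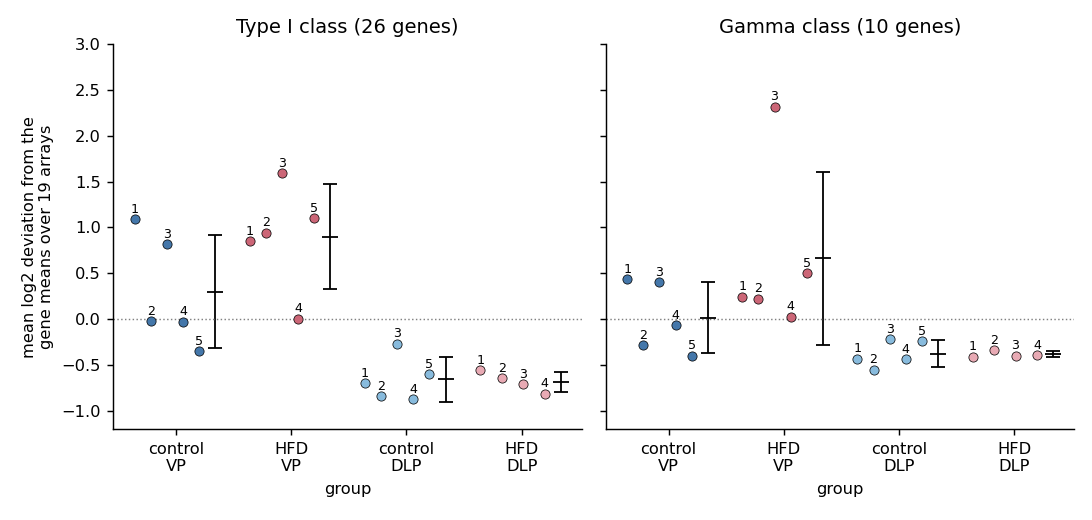
Mean log2 deviation of the type I class (left, 26 genes) and the gamma class (right, 10 genes) from the gene means over 19 arrays, for each array (points, numbered by replicate) of the 4 groups, with the group mean and SD (bars). HFD VP 3 stands at 2.32 for the gamma class, apart from the other HFD VP arrays, whereas the type I values of HFD VP run from 0.01 to 1.59.

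The median spread of the 36 genes within each group exceeded that of all genes tested. Over the 36 genes the median SD was 0.51 for control VP, with 0.18 over all genes tested, and 0.75 for HFD VP, with 0.17. In DLP it was 0.26 on the control diet and 0.16 on the high fat diet, against 0.13 and 0.12. An SD of more than 2 times the median of the group was found for 28 of the 36 in control VP, 32 in HFD VP, 18 in control DLP and 10 in HFD DLP, against 10.3% to 11.3% of all genes. Ifit3 had the largest SD in control VP, 1.45, and Iigp1 in HFD VP, 1.89. The gamma class in HFD DLP was an exception, with a median SD of 0.098 and 1 of 10 genes past that limit. Spread was not tested between groups.

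Leaving out arrays moved the diet comparison in VP. Without HFD VP 3, 31 of 36 differences were above 0, with a median of 0.27, and none passed. Without control VP 4 and HFD VP 3, 28 of 36 were above 0 and the median was 0.22. Without HFD VP 4, 5 genes passed and were higher on the high fat diet (Ifit1, Ifit3, Usp18, Mx1 and Oasl1), when 0.691% of all genes passed. Without control VP 1 Ifit3 passed, with 1.26% of all genes, and without HFD VP 1 Ifit2 passed, with 0.725%.

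In the dorsolateral lobe, the differences by diet lay on both sides of 0. Of the 36 differences 16 were above 0, against 53.7% of all genes, and 20 below, with a median of -0.01 against 0.01 over all genes, and the range was -0.24 (Ifih1) to 0.26 (Oasl1). Without control DLP 3, 25 of 36 were above 0. None passed limma's test, and 0.0% of all genes did. At an unadjusted p under 0.05 there were 0 of 36, against 5.64% of all genes. Median differences were -0.01 for the type I class and -0.02 for the gamma class. Ifih1, the gene with the smallest p, measured 4.10, 3.90, 4.62, 4.45 and 4.12 in control DLP and 4.02, 4.08, 3.97 and 3.92 in HFD DLP (95% interval of the difference -0.59 to 0.10, limma's adjusted p 0.98). The groups overlapped, as they did for Oasl1 (-0.17 to 0.70). Isg20, at 4.91, 4.90, 5.03, 5.04 and 5.17 and 5.29, 5.14, 4.88 and 5.13, differed by 0.10 (-0.14 to 0.34). Stat2, at 3.30, 3.22, 3.60, 3.15 and 3.30 and 3.29, 3.18, 3.16 and 2.98, differed by -0.16 (-0.59 to 0.27). The intervals of Ifit3 (-1.12 to 1.39) and Ifit1 (-1.05 to 1.11) held differences of 1 in either direction. Their width came largely from VP, through the shared estimate of spread. The SD of Ifit1 was 0.29 in control DLP and 0.25 in HFD DLP, against 1.05 in control VP and 1.29 in HFD VP. An interval from DLP arrays alone is not given, and the values do not show that diet had no effect in DLP.

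**Figure D4:**
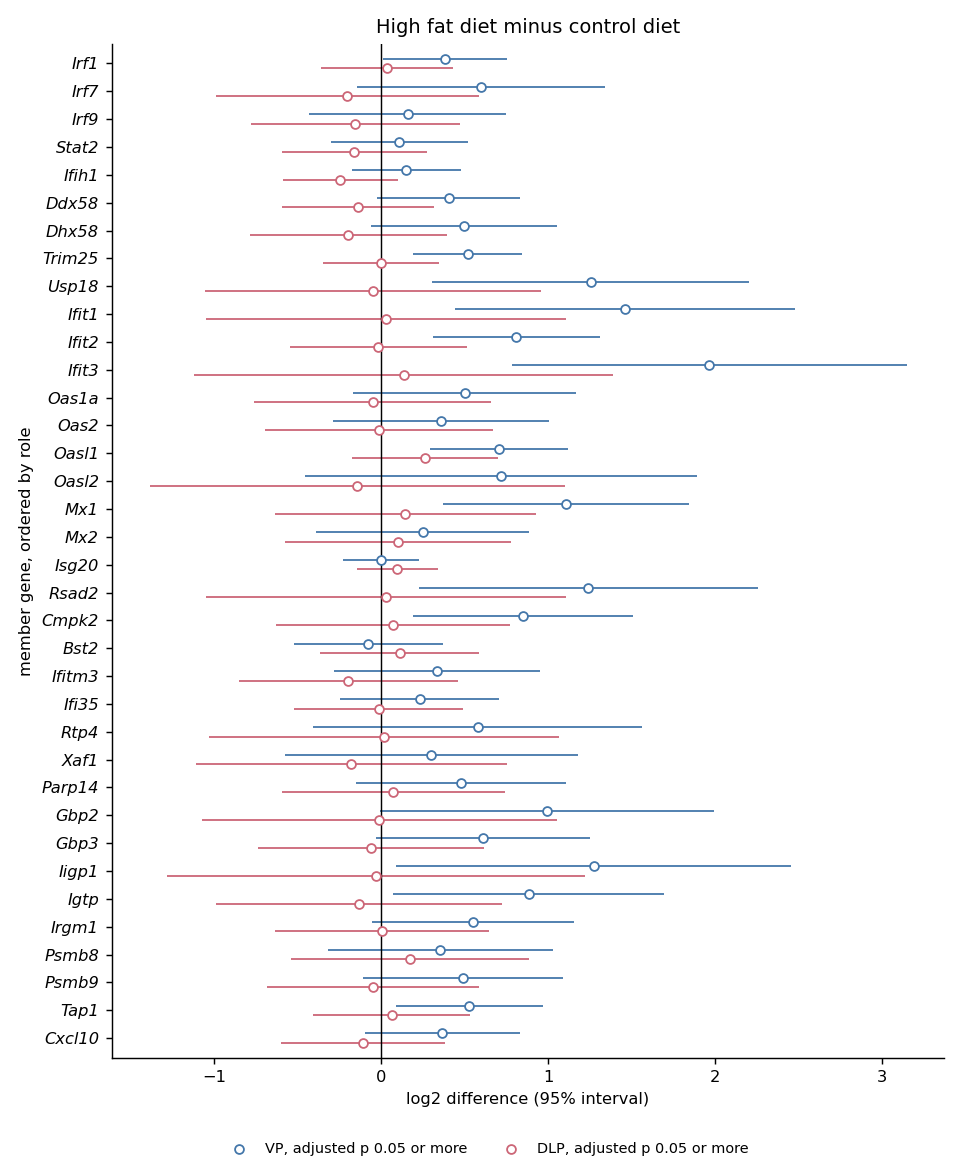
Log2 difference, HFD minus control, of each member in VP (blue) and DLP (red), with its 95% interval. Open points mark an adjusted p of 0.05 or more, which holds for each point. The VP differences lie above 0 for 35 of 36 genes and the DLP differences spread around 0, from -0.24 to 0.26.

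The difference between the lobes in the diet response was itself tested, and no member passed, against 0.00853% of all genes. The difference (DLP response minus VP response) was below 0 for 34 of 36 genes, against 50.1% of all genes, with a median of -0.54 against 0.00. The median was -0.31 without HFD VP 3, with 3 of 36 above 0, and without control VP 4 and HFD VP 3 it was -0.24, with 6 above 0. At an unadjusted p under 0.05 there were 3 of 36, against 8.45% of all genes. Ifit2 and Trim25 had the smallest p, with values of -0.83 (-1.55 to -0.10, limma's adjusted p 0.53) and -0.52 (-0.99 to -0.04, adjusted p 0.56). The diet responses of the lobes were thus not told apart for any of the 36 genes.

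Between the lobes, the members that passed the test were mostly lower in DLP. On the control diet 16 of 36 passed in neither direction, a share near that of all genes tested, 5277 of 11728. On the high fat diet these counts were 6 of 36 and 5524 of 11728. On the control diet, 19 of 36 genes were lower in DLP than in VP, against 26.8% of all genes tested, and Ifi35 was higher, in a direction that 28.2% of all genes took. The median difference (DLP minus VP) was -0.82, against 0.00 over all genes. For 11 genes each DLP array lay below each VP array, which 19.1% of all genes did. On the high fat diet 30 of 36 were lower in DLP, against 26.1% of all genes, with a median of -1.18 and 26 genes whose groups did not overlap, against 21.5% of all genes. The 19 genes lower on the control diet were also lower on the high fat diet. They include Dhx58 and Mx2 of the type I class, which entered the test through VP arrays alone. A lower level in DLP was built into the selection of these 2 genes, which also enter the counts by class below. Another 11 passed on the high fat diet alone, but the difference between diets was not called for any of them.

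The type I class made up most of the calls on the control diet, with 17 of 26 genes lower in DLP and a median of -0.98. In the gamma class 2 of 10 genes, Psmb8 and Cxcl10, were lower, with a median of -0.38. The latter count is near the 26.8% of all genes that were lower. On the high fat diet the counts were 22 of 26 and 8 of 10, against 26.1% of all genes, with medians of -1.31 and -1.13. Without HFD VP 3, which also enters the shared estimate of spread, 18 type I and 6 gamma genes were lower on the control diet. Without it the medians on the high fat diet were -1.05 and -0.65, with 22 and 8 genes lower, and Ifi35 higher. In that setting 56.1% of all genes passed in either direction on the control diet and 52.9% on the high fat diet. The difference between the classes was not tested. The 6 macrophage markers had a summed level of 42.5 to 131 in control DLP and 45.5 to 62.4 in HFD DLP, against the VP values given above. Among them Cd14 was lower in DLP on both diets, Cd68 on the control diet, and Adgre1 and Aif1 on the high fat diet. Of 4 measured natural killer markers Gzmb and Nkg7 were lower in DLP on both diets, while Ncr1 and Gzma were too dim to be tested. Of the T cell markers Cd8a was higher in DLP on the control diet, by 0.34, and Cd3g passed on neither diet. The 3′ to 5′ log2 difference of the Gapdh control probe sets was -0.54 to -0.35 in DLP and -0.41 to -0.03 in VP. The part of these in the lobe difference was not tested.

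**Figure D5:**
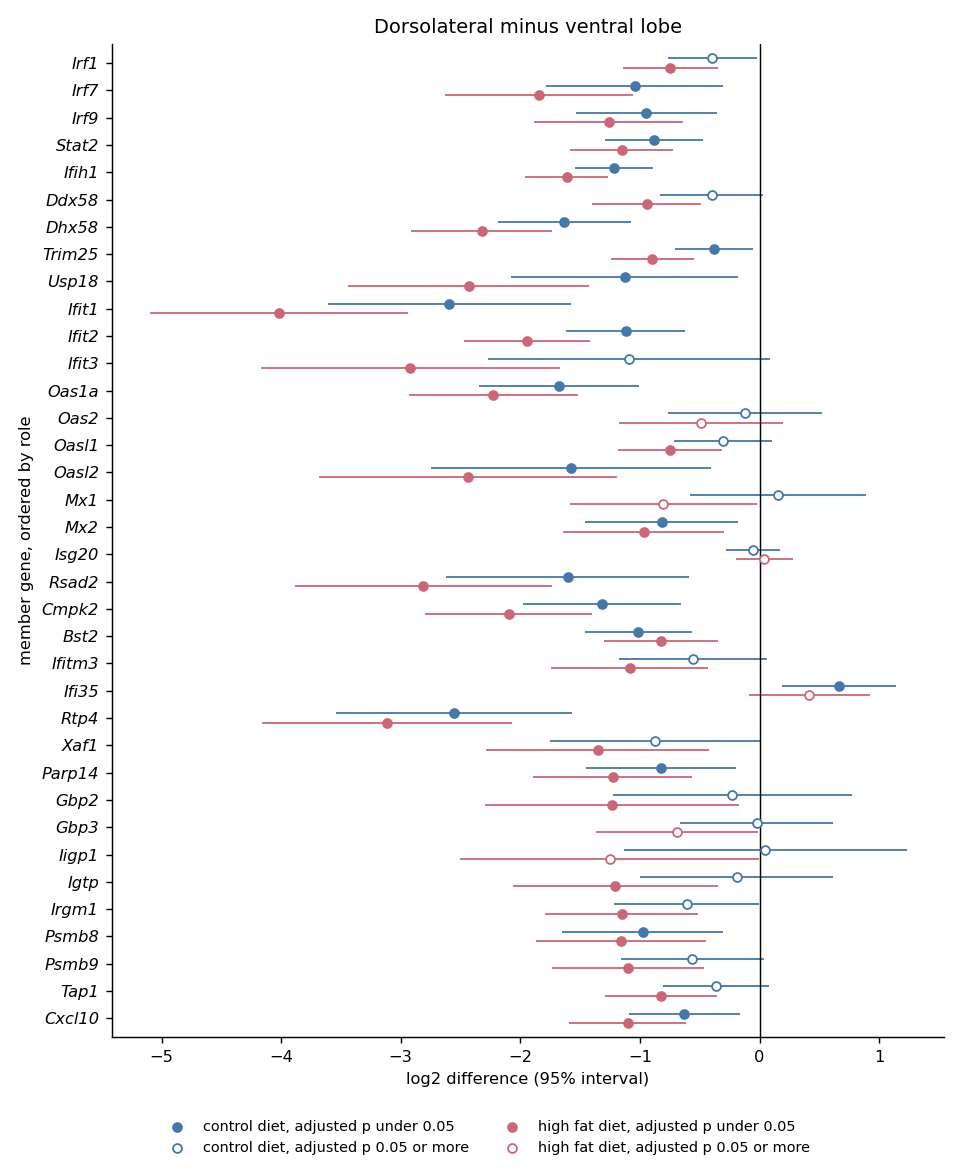
Log2 difference, DLP minus VP, of each member on the control diet (blue) and the high fat diet (red), with its 95% interval. Filled points passed an adjusted p of 0.05. Most points lie below 0, with Ifit1 at -2.59 on the control diet and -4.02 on the high fat diet, and Ifi35 lies above 0 on both.

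The type I transcription factors were lower in DLP on both diets. Irf7 measured 2.95, 2.80, 3.97, 2.28 and 3.23 in control DLP and 3.17, 2.85, 2.71 and 2.65 in HFD DLP, and differed from VP by -1.04 (-1.79 to -0.30, limma's adjusted p 0.017) and -1.85 (-2.63 to -1.06, adjusted p 0.00037). Irf9 measured 3.89, 3.53, 4.56, 3.83 and 4.00 and 4.12, 3.86, 3.49 and 3.77, and differed by -0.95 and -1.26 (adjusted p 0.0077 and 0.0015). Stat2 differed by -0.88 and -1.15 (adjusted p 0.00075 and 0.00010), and its second probe set by -0.32 and -0.64. Irf1, the factor of the gamma class, measured 4.29, 4.17, 4.26, 4.20 and 4.49 and 4.12, 4.49, 4.35 and 4.31. Its difference of -0.40 on the control diet did not pass (adjusted p 0.067), and that of -0.75 on the high fat diet did (0.0025).

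The 4 RNA sensors and partners were lower in DLP on the high fat diet, and all but Ddx58 on the control diet. Ifih1 measured 5.67, 5.45, 5.76, 5.46 and 4.93 in control VP and 5.63, 5.49, 6.09, 5.35 and 5.49 in HFD VP, each above the DLP levels of 3.90 to 4.62. It was lower in DLP, with differences of -1.22 (-1.54 to -0.89, limma's adjusted p 1.6e-06) and -1.61 (-1.96 to -1.27, 8.8e-08). Dhx58 (LGP2), a regulator of these sensors, measured 3.61, 2.59, 3.42, 2.30 and 2.11 in control VP and 3.57, 3.26, 3.52, 2.74 and 3.43 in HFD VP. In DLP it measured 1.38, 1.33, 1.73, 0.63 and 0.81 and 0.81, 1.37, 0.98 and 0.77, below the array median on each array. Dhx58 entered the test through its VP arrays alone, so a difference between lobes was built into its selection. The size also rests on the offset assumed inside the logarithm, with differences of -1.63 and -2.32 at an offset of 1 and -0.37 and -0.56 at an offset of 16. Trim25 was lower, with differences of -0.38 and -0.90, of which the first had an adjusted p of 0.047 and was lost under 20 of 30 alternative settings.

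Among the IFIT genes, Ifit1 was lower in DLP, with differences of -2.59 on the control diet (-3.61 to -1.57, limma's adjusted p 0.00015) and -4.02 on the high fat diet (-5.10 to -2.94, 1.9e-06). With an offset of 16 inside the logarithm the differences were -1.13 and -2.20, so their size depends on the offset for a probe set this close to the array median in DLP. Ifit2 was lower, with differences of -1.12 and -1.95 (adjusted p 0.00053 and 2.2e-06). Ifit3 differed by -1.09 on the control diet, where it did not pass (0.11), and by -2.92 on the high fat diet (0.00039). In control VP, 3 of the 5 Ifit3 levels lay within the range of the DLP arrays.

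Oas1a measured 5.18, 3.87, 5.39, 4.09 and 3.74 in control VP and 5.50, 4.75, 5.77, 4.23 and 4.53 in HFD VP. In DLP it measured 2.96, 2.74, 3.23, 2.45 and 2.52 and 2.90, 2.98, 2.86 and 2.19, below every VP array. The differences were -1.67 (limma's adjusted p 0.00018) and -2.22 (1.6e-05). Oasl2 and Usp18 were lower on both diets, by differences of -1.58 and -1.13 on the control diet and -2.44 and -2.43 on the high fat diet. Under the alternative settings those of Usp18 shrank to as little as -0.40 and -1.04. On the control diet Oasl2 missed the threshold in 4 of 30 alternative settings and Usp18 in 7. Mx2 also passed on both diets, with 5 such losses on the control diet, but no DLP array exceeded the array median and the gene was tested through VP alone, so no size is given. Oas2 and Mx1 passed on neither diet, with differences of -0.12 and 0.16 on the control diet and -0.49 and -0.80 on the high fat diet.

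Rtp4, a chaperone of surface receptors, had the largest lobe difference after Ifit1 on both diets. It measured 6.62, 4.71, 6.69, 4.78 and 4.14 in control VP and 6.48, 5.51, 7.24, 4.96 and 5.64 in HFD VP. Its DLP levels were 2.85, 2.04, 3.77, 2.30 and 3.21 and 2.93, 2.99, 2.84 and 2.63, again below every VP array. The differences were -2.56 (-3.54 to -1.57, limma's adjusted p 0.00013) and -3.12 (-4.16 to -2.07, 2.9e-05). Bst2 measured 3.37, 3.40, 3.33, 3.31 and 3.46 in control DLP and 3.62, 3.50, 3.33 and 3.50 in HFD DLP, and was lower than in VP, with differences of -1.01 (0.00049) and -0.83 (0.0047). Its groups overlapped on the high fat diet, where HFD VP 4 was at 3.44.

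Rsad2, at 3.13, 2.94, 2.73, 3.07 and 2.69 in control DLP and 2.94, 3.60, 2.75 and 2.49 in HFD DLP, was lower, with differences of -1.60 (limma's adjusted p 0.0086) and -2.81 (0.00012). Cmpk2, at 2.43, 2.05, 2.10, 2.31 and 1.86 and 2.33, 2.37, 2.12 and 2.07, was lower, with differences of -1.32 (0.0015) and -2.10 (2.7e-05). It lay near the array median in DLP, and under the alternative settings its differences shrank to as little as -0.44 and -0.89. Rsad2 and Cmpk2 both lay below every VP array in DLP. The other probe sets of these genes differed by -1.48 to -0.89 on the control diet. Ifi35 was higher in DLP by 0.66 on the control diet (0.019), but its other 2 probe sets differed by -0.32 and -0.73, so its direction depends on the probe set. Isg20 differed by -0.06 and 0.04.

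Of the 10 gamma class genes, 2 passed between lobes on the control diet, both lower in DLP, near the 26.8% of all genes. Psmb8 measured 3.40, 3.08, 3.65, 3.12 and 3.40 in control DLP and 3.50, 3.52, 3.40 and 3.60 in HFD DLP, each below every VP array, and differed by -0.98 (limma's adjusted p 0.014) and -1.16 (0.0075). Cxcl10 was lower, with differences of -0.63 (0.021) and -1.10 (0.00056), which shrank to as little as -0.15 and -0.30 under the alternative settings. The 5 GTPases Gbp2, Gbp3, Iigp1, Igtp and Irgm1 had control diet differences of -0.61 to 0.05, and none passed. On the high fat diet Gbp2, Igtp and Irgm1 passed, with differences of -1.23, -1.21 and -1.15. Once HFD VP 3 was left out these were -0.54, -0.72 and -0.81, and that of Psmb8 was -0.71. Gbp2 missed the threshold under 20 of 30 alternative settings. In DLP, Gbp2 was even, at 2.73, 2.70, 2.89, 2.80 and 3.03 and 2.82, 2.80, 2.79 and 2.86, and Iigp1 measured 3.03, 3.01, 3.27, 3.16 and 3.06 and 3.00, 3.49, 2.83 and 2.98.

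The median differences of genes with and without the ISRE core lay close together, and their difference was not tested. Among tested members with a promoter sequence, 14 had the core and 14 did not. On the high fat diet their median DLP minus VP differences were -1.18 and -1.13, with 13 and 12 genes lower, against 26.1% of all genes. The medians for diet in VP were 0.53 and 0.51. The printed Ifit1 and Ifit3 promoters, with 2 cores each, belong to the genes with the largest differences by diet, whereas Bst2, also with 2 cores, had the negative one. Irf7, Irf9, Oasl1, Oasl2, Trim25, Xaf1, Cmpk2, Psmb9, Tap1 and Ifi44 held neither motif in this window.

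Upstream parts of the pathway were read from a second list of 65 genes, of which 57 were measured and 47 tested. Of the ligands, Ifnb1 and Ifng were measured and never exceeded the array median, so neither was tested. None of the 10 tested receptor and signalling genes passed by diet in VP. By lobe on the control diet, 7 were lower in DLP, against 26.8% of all genes, and 1 higher, against 28.2%. The shared receptor chain Il10rb differed by -2.43, Ifnar2 by -0.70, Ifnar1 by -0.27 and Jak1 by -0.47. The chains of the interferon gamma receptor differed in opposite directions on both diets, Ifngr1 by 1.24 and Ifngr2 by -0.54 on the high fat diet.

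Of 9 tested genes that induce interferon, none passed by diet in VP, and by lobe on the control diet 3 were higher in DLP and 2 lower, shares near the 28.2% and 26.8% of all genes. The DNA pathway adaptor Sting1 differed by -1.65 and the RNA receptor Tlr3 by -0.68, while the kinase Ikbke differed by 0.88, Irf3 by 0.42 and Irf8 by 0.25. Another 28 induced genes outside the list of 40 were tested. All 28 differences by diet in VP were above 0, with a median of 0.35, and none passed, H2-D1 (0.45) and Trim21 (0.38) having the smallest p. Without HFD VP 3, 24 of the 28 were above 0, with a median of 0.18, and B2m, Eif2ak2, Ifi27l2a and Lgals3bp were below. By lobe 8 of the 28 were lower on the control diet, a share near the 26.8% of all genes, and 1 was higher. On the high fat diet 22 were lower, against 26.1% of all genes, and 1 was higher. The lower counts were 13 and 16 when HFD VP 3 was left out, with 56.1% and 52.9% of all genes passing in either direction. The secreted glycoprotein Lgals3bp differed by -2.25 and the class I heavy chain H2-D1 by -0.79 on the control diet, but B2m, the light chain of class I molecules, differed by 1.62.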

How the data were processed

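Expression was measured on 19 Affymetrix arrays, 1 for each sample, over 45101 probe sets. Per the submitters' processing notes the authors used MAS5; no other step was named (not given in the sources used here). Their deposited values were read as log10 signals, from 0 to 3.99 with a median of 0.555, and sorted values matched exactly across arrays. The log base was inferred from spike-in controls: the deposited steps were 0.53, 0.74 and 0.96 against nominal log10 steps of 0.52, 0.70 and 0.60, so the last step was larger than its nominal value, and the offset of 1 inside the logarithm was an assumption. Values were converted to log2. No depth applies to arrays, and their number limits the precision.

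Probe sets with 1 symbol in the platform annotation (34945, of which 34754 were named through the gene ID) were used. Those with several symbols (932) or none (9160) and 64 controls were left out. A gene was kept if any of its probe sets lay above the median of the array on at least 4 arrays. Among those that did, the probe set with the highest mean was tested. For each tested member this was also the highest of all its probe sets. limma 3.58.1 in R 4.3.3 (lmFit, and eBayes with a mean-dependent prior) was fitted to all 19 arrays in 4 groups, with Benjamini-Hochberg adjustment over 11728 genes at 0.05. The fit was tested on simulated data. Deviations of same-numbered arrays of the 2 lobes, on 1 diet, had correlations of -0.07 to 0.19. For same-numbered arrays of the 2 diets, in 1 lobe, they were -0.15 to 0.46. Since the labels tie no number to a mouse, numbers were not treated as pairs in the main fit.

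The members and lists were chosen with earlier results of these data known. Values on every array were given by rule for the 6 genes with the smallest p for diet in VP, the 4 for diet in DLP, the 2 for the interaction, the 6 and 2 for the lobe contrasts, and 4 transcription factors. Usp18, Igtp, Iigp1, Gbp2 and Psmb8 fell outside the rule and were chosen after their values were seen. Alternatives covered the offset, filter, probe set choice, variance prior, weights, normalization, samples in the fit, replicate block and arrays left out.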

Additional observations from a re-analysis of the deposited data

Results flagged for a closer look

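In 9 of 164 combinations of a group and a gene or class score, a single array lay further from the rest of its group than the 95% limit of Dixon's test allows, and chance gives such a result in about 1 in 20 groups. Of these, 6 were the highest value of HFD VP 3. On that array Iigp1 was at 7.61 (3.16 to 4.31 on the other HFD VP arrays), Gbp2 at 6.82 (2.92 to 3.75), Psmb8 at 6.45 (4.08 to 4.40) and Psmb9 at 5.91 (3.78 to 4.25). Zbp1, a nucleic acid sensor that was below the filter, was at 2.64 there (1.29 to 1.67), and the mean score of the gamma class was 2.32 (0.03 to 0.50).

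The other 3 lay on separate arrays. Usp18 was at 2.73 on HFD VP 4, the lowest of its group (4.64 to 5.22 on the others). Oas1a was at 2.19 on HFD DLP 4, again the lowest (2.86 to 2.98). Tap1 was at 3.68 on control DLP 3, the highest of its group (3.04 to 3.15).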

How the results depend on the processing

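The median difference of the members kept its direction in VP by diet (0.27 to 0.67 with 1 array left out) and in both lobe contrasts. With an offset of 16, 12 of 36 members passed between lobes on the control diet in either direction, against 54.7% of all genes. The median lobe differences were then -0.37 on the control diet and -0.67 on the high fat diet. With 1 array left out, 0 to 5 members passed for diet in VP, against 0.597% to 1.26% of all genes. Between lobes 14 to 25 passed on the control diet, against 52.0% to 56.1% of all genes. On the high fat diet 28 to 32 passed, against 48.1% to 54.7%. Another setting took the replicate number as a block, which pairs same-numbered arrays though the labels do not tie them to 1 mouse. Under it 0 members passed for diet in VP, 22 between lobes on the control diet and 29 on the high fat diet. Of all genes, 0.793%, 53.7% and 49.3% passed these 3 comparisons.

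Small differences changed sign, and the cause was not tested. For diet in VP, leaving out 1 array gave -0.080 to 0.057 for Isg20 (-0.010 with array weights), -0.040 to 0.37 for Irf9, -0.023 to 0.30 for Stat2, -0.0021 to 0.39 for Ifi35, -0.29 to 0.14 for Bst2, -0.067 to 0.615 for Xaf1 and -0.090 to 0.50 for Psmb8. Without control VP 4 and HFD VP 3 together, Mx2 was at -0.059, Irf9 at -0.13, Stat2 at -0.055, Ifi35 at -0.056, Bst2 at -0.376, Xaf1 at -0.20, Ifitm3 at -0.033 and Psmb8 at -0.10. Mx2 reached 0.511 without HFD VP 4 and Ifitm3 0.527 without control VP 1. Between lobes on the control diet, leaving out 1 array gave -0.355 to 0.037 for Oas2, -0.20 to 0.14 for Gbp3 and -0.10 to 0.21 for Iigp1, and the mean of probe sets gave -0.13 for Ifi35 and -0.013 for Iigp1. On the high fat diet Isg20 ran from -0.019 to 0.12 with 1 array left out and was -0.015 with the replicate block, and Ifi35 was -0.31 with the mean of probe sets. Dim probe sets near the array median limit what can be read for Dhx58, Oas2, Mx2, Ifit1, Cmpk2, Cxcl10 and Usp18 in DLP.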
